A study of Rattus norvegicus with 12 samples.

Results

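The 5.8S ribosomal RNA and 9 genes of the RNA polymerase I (Pol I) machinery were followed in the rat dopaminergic neural cell line N27 after exposure to fipronil, an insecticide that blocks GABA-gated chloride channels. The 10 members were Rn5-8s, Polr1a, Polr1b, Polr1c, Polr1d, Polr1e, Rrn3, Ubtf, Taf1b and Ttf1, out of 36181 gene names on the array. All 10 were found: 9 by the name printed on the array and Polr1d, which the array calls Rpo1-3, through its current RefSeq name. The members had 13 probes, and all 10 were among the 13542 genes with enough signal to be tested. Rn5-8s was chosen by its measured difference between fipronil and control on these same arrays, so that difference is given as a description with no test. The 9 Pol I genes were listed by function.

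Total RNA of 6 samples treated with 25 µM fipronil for 24 h and of 6 untreated control samples was labelled with Cy3 and hybridised to 12 one-colour Agilent arrays. Both groups were N27 cells with no other agent or genotype named. The labels state neither a vehicle for the controls nor separate cultures for the replicates, so a p-value here reflects sample-to-sample spread that could be technical. The arrays came from 3 slides. Controls 2 and 3 shared slide 1 with fipronil replicates 7 and 8. Controls 5 to 8 were on slide 2, and fipronil replicates 1 to 4 were on slide 3. Only slide 1 therefore compares the treatments within a slide, and between slides 2 and 3 treatment and slide cannot be told apart. Of 8 dopaminergic markers, Th and Aldh1a1 had enough signal to be tested, while the dopamine transporter Slc6a3 was well above background on 0 of 12 arrays. Of 4 fibroblast markers, Col1a1 was higher with fipronil (difference in log2 level 0.98, adjusted p = 0.0375; slide 1 0.09), Pdgfrb differed by 0.12 (adjusted p = 0.684), and Col3a1 and Dcn were well above background on 0 of 12 arrays. The summed level of the 2 tested fibroblast markers (log2) ran from -1.57 to -0.95 in the controls and from -1.23 to -0.26 with fipronil, and their part in the results was not tested.

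Pol I transcribes the ribosomal DNA repeats in the nucleolus into one long precursor, which is cut and trimmed into the 18S, 5.8S and 28S rRNAs. UBTF and the promoter selectivity factor, which contains TAF1B, mark the promoter; RRN3, also called TIF-IA, joins the polymerase to it; TTF1 binds the terminator. Growth and nutrient signals act on this pathway largely through RRN3. Mature rRNA mostly carries no poly(A) tail, and the primer used to label the RNA was not given in the sources used here.

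The rRNA results rest on 5 probes of 60 bases, each printed once per array and all placed by the array on chromosome Un, that is, on sequence not assigned to a chromosome. They are shown because they read different stretches of the ribosomal RNAs: bases 54 to 113 of the 5.8S RNA, bases 1814 to 1873 of the 18S RNA, and 3 stretches of the Rn45s precursor that start at bases 5508, 6254 and 8134. The Rn45s stretches were not placed against the mature rRNAs cut from the precursor. Those probes may therefore read mature rRNA, and their values are not a measure of the precursor alone. All letters are lower case, since no part is singled out.

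Rn5-8s, probe A_44_P1090386: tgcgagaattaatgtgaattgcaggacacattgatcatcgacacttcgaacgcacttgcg
Rn18s, probe A_44_P1090392: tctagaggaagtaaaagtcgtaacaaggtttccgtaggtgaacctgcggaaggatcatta
Rn45s, probe A_44_P1112711: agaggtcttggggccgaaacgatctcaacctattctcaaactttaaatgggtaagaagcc
Rn45s, probe A_44_P186336: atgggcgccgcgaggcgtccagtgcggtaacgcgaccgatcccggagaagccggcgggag
Rn45s, probe A_44_P1090387: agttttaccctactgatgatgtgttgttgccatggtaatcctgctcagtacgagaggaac

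G and C made up 45% of the 5.8S probe and of 2 of the Rn45s probes, 43.3% of the 18S probe and 73.3% of the Rn45s probe that starts at base 6254.

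Levels are given as the log2 of the processed intensity minus the log2 of the 75th percentile of the same array, so a level of 1 lies 2-fold above that percentile. The Rn5-8s level in the controls was 1.58 and 1.71 on slide 1 and 1.22, 1.01, 1.23 and 0.66 on slide 2. With fipronil it was 3.26 and 3.28 on slide 1 and 2.51, 2.15, 2.98 and 3.46 on slide 3. Every fipronil array lay above every control array, on slide 1 as well as over all slides. The group means were 2.94 ± 0.51 and 1.23 ± 0.38 (SD, n = 6 each), a difference of 1.70, or 3.26-fold. The difference was 1.62 within slide 1 and 1.75 between slides 2 and 3. Leaving out any 1 array gave differences from 1.59 to 1.86. The spread among the 4 fipronil arrays of slide 3 (SD 0.57) was larger than among the 4 controls of slide 2 (SD 0.27).

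**Figure D1:**
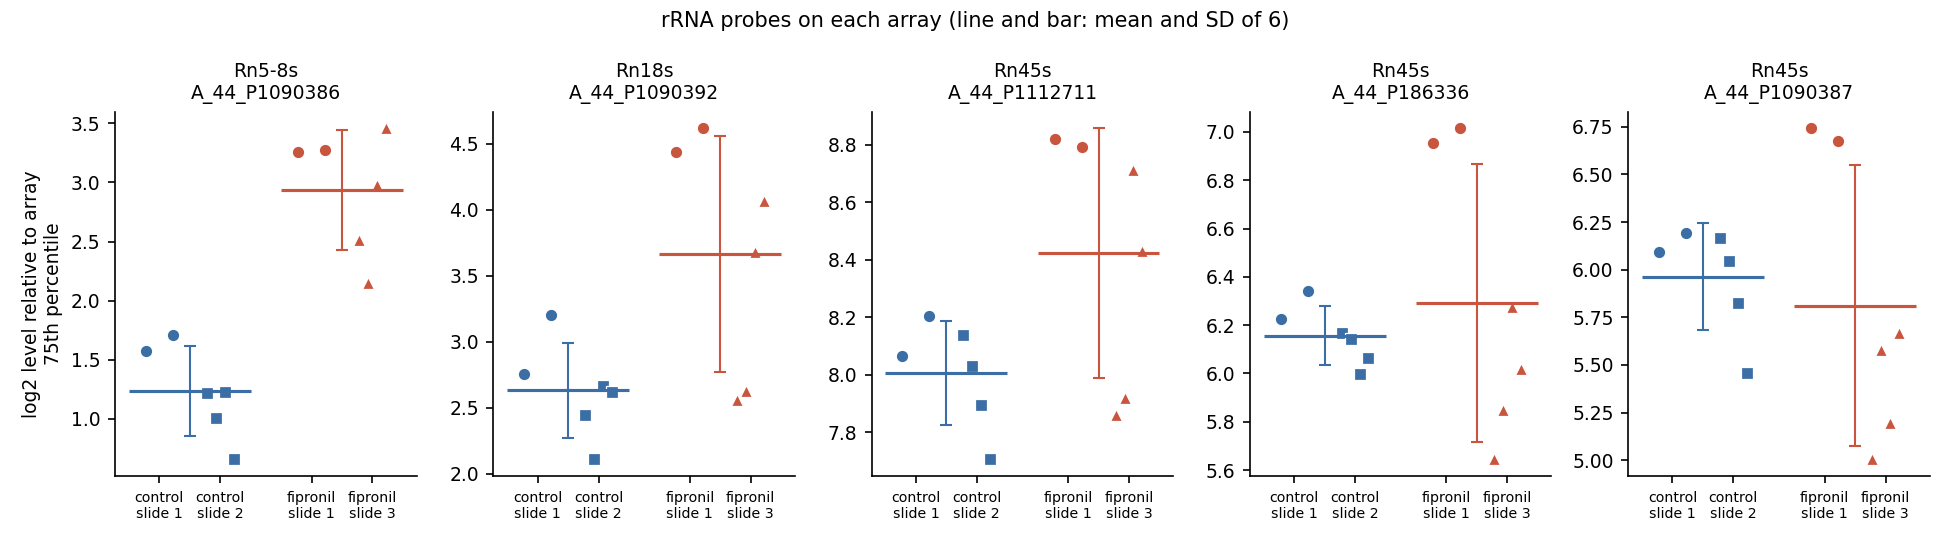
Levels of the 5 rRNA probes on each array (log2, relative to the array's 75th percentile; the axes differ between panels and do not start at 0). Points are arrays (circles slide 1, squares slide 2, triangles slide 3; blue control, red fipronil), lines and bars the mean and SD of 6. Rn5-8s separates the groups on all slides, while in the other panels the slide 1 fipronil arrays lie highest and slide 3 arrays reach down to the control range or below it.

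The size of that difference depended on how the arrays were put on one scale. Before any scaling, the processed intensity of Rn5-8s was 832 and 882 in the slide 1 controls and 2348 and 2373 in the slide 1 fipronil arrays. On slide 2 the 4 controls read 879, 943, 1107 and 673, and on slide 3 the 4 fipronil arrays read 785, 494, 1105 and 1254. Within slide 1 the fipronil arrays were thus higher in unscaled intensity too, by 1.46 on the log2 scale. Between slides 2 and 3 the unscaled intensities overlapped, with a difference of -0.05. The 75th percentile of the arrays, by contrast, was 379 to 472 on slide 2 and 111 to 140 on slide 3, a log2 difference of -1.80, against -0.16 within slide 1. Scaled to the median spot of the E1A spike-in RNAs, which are added to every sample in fixed amount, Rn5-8s differed by 1.95 over all arrays. It differed by 1.76 on slide 1 and by 2.04 between slides 2 and 3. That median lay near the floor on slide 3, at a log2 intensity of 2.54 to 3.25, against 4.50 to 5.30 on slide 2. In fipronil 1 on slide 3, a Polr1e probe at 3.52 was not well above background. Spike-in scaled differences that include slide 3 carry that limit.

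**Figure D2:**
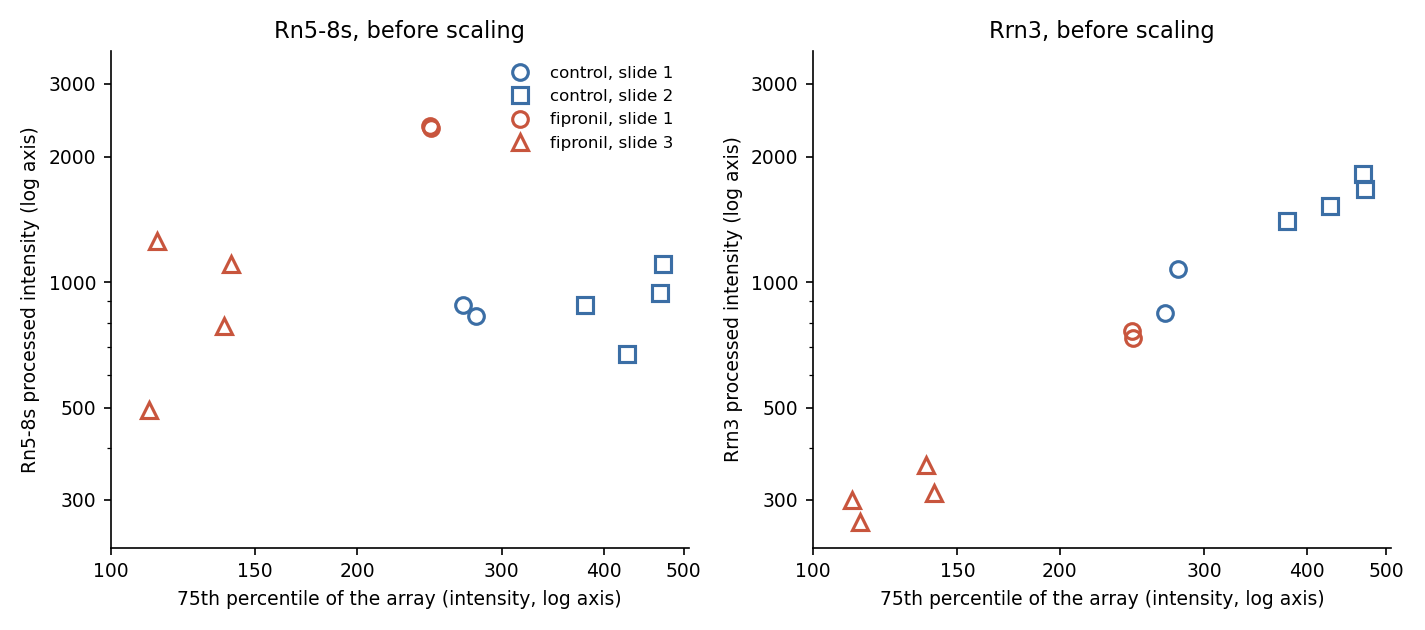
Processed intensity of Rn5-8s (left) and Rrn3 (right) before scaling, against the 75th percentile of the same array; both axes are logarithmic and each symbol is 1 array (2 slide 1 fipronil arrays nearly coincide in the left panel). Rrn3 intensities fall from 1406.8 to 1817.9 on slide 2 to between 265 and 364 on slide 3 along with the arrays' percentiles, whereas Rn5-8s intensities overlap between slide 2 (673 to 1107) and slide 3 (494 to 1254) and the slide 1 fipronil arrays stand at 2348 and 2373.

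The other rRNA probes did not all move with Rn5-8s. The 18S probe, Rn18s, read 2.76 and 3.20 in the slide 1 controls and 4.44 and 4.62 in the slide 1 fipronil arrays. On slide 2 it read 2.44, 2.11, 2.67 and 2.62, and on slide 3 it read 2.56, 2.63, 3.68 and 4.07. Fipronil arrays were clearly separate on slide 1, while 2 of the 4 slide 3 arrays lay inside the control range. The difference was 1.03 (SE 0.35) over all arrays and did not pass the threshold (limma, adjusted p = 0.0936); it was 1.55 on slide 1 and 0.77 between slides 2 and 3.

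The 3 Rn45s probes were higher on slide 1 by 0.67, 0.70 and 0.57, in order of their start at bases 5508, 6254 and 8134. Between slides 2 and 3 the same probes differed by 0.29, -0.15 and -0.51. Over all arrays the differences were 0.42, 0.14 and -0.15, with adjusted p-values of 0.185, 0.742 and 0.781 when every probe was tested. Within slide 1 all 5 rRNA probes were thus higher in both fipronil arrays than in both controls, and between slides 2 and 3 their differences ran from -0.51 to 1.75. Without scaling, the 18S difference over all arrays became -0.22 and that of the Rn45s probe at base 5508 became -0.83.

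Among the 9 Pol I genes, 1 was called changed: Rrn3 fell. Over all genes tested, 5.01% changed in either direction (303 higher and 375 lower), and 2.77% were lower; a single call among 9 genes is too few to set against those shares. That split moved with the scaling: 150 were higher and 435 lower with median scaling, and 197 higher and 15 lower with spike-in scaling. The spike-in reference lay near the floor on slide 3. With a normexp background and the 75th percentile, 5113 were higher and 1661 lower, and the median difference over all genes was 0.17. In sign, 8 of the 9 were lower with fipronil, where 59.7% of all genes were lower; with spike-in scaling Polr1c and Taf1b turned higher, with median scaling Polr1d turned lower, and a normexp background with the 75th percentile turned Polr1a, Polr1b, Polr1e, Taf1b and Ttf1 higher and Polr1d lower. Their median difference was -0.40, beside -0.08 over all genes. At an unadjusted p under 0.05 there were 5 of 9, beside 25.0% of all genes, but with spike-in scaling 0 of 9, where 2525 of the 13542 genes still had such a p.

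**Figure D3:**
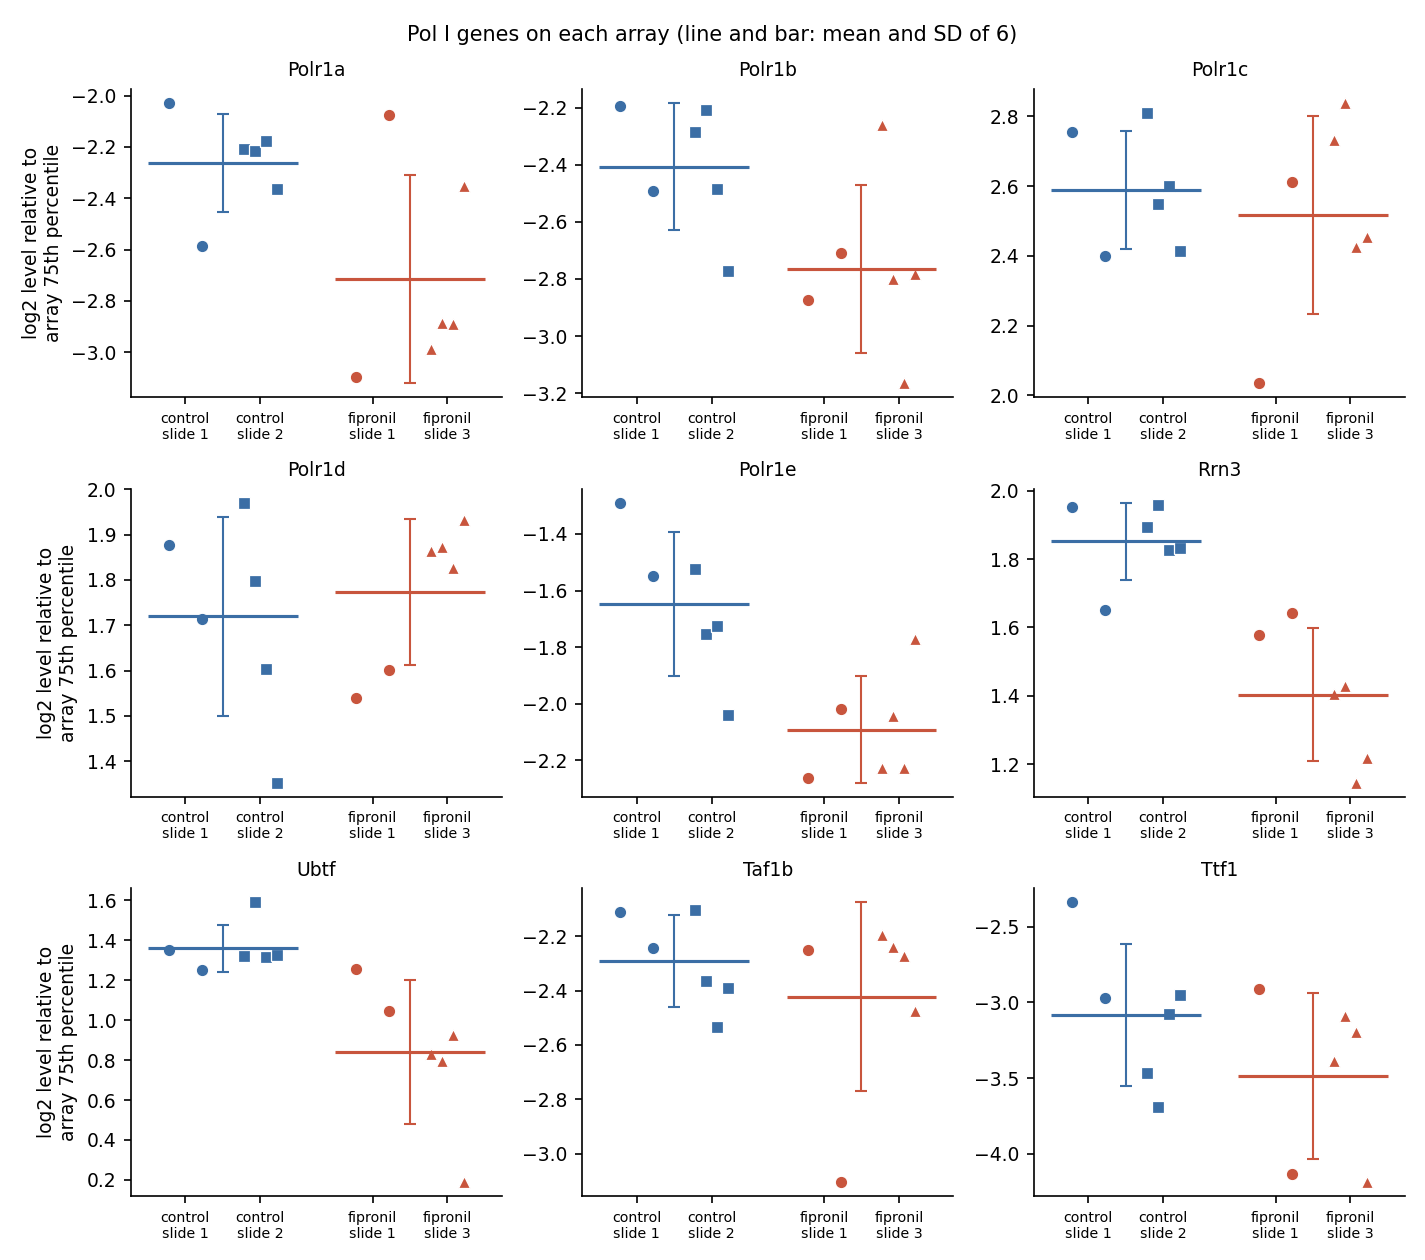
Levels of the 9 Pol I genes on each array (log2, relative to the array's 75th percentile; the axes differ between panels and do not start at 0), with symbols, lines and bars as for the rRNA probes. Rrn3 is the one panel without overlap between the 6 control and the 6 fipronil arrays; Polr1c and Polr1d overlap over most of their range.

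Rrn3, the initiation factor that brings Pol I to the promoter, had control levels of 1.95 and 1.65 on slide 1 and 1.89, 1.96, 1.83 and 1.83 on slide 2. With fipronil it was 1.58 and 1.64 on slide 1 and 1.40, 1.43, 1.15 and 1.22 on slide 3. The groups did not overlap, which held for 4.18% of all genes, though on slide 1 the higher fipronil array and the lower control lay side by side. The mean fell from 1.85 ± 0.11 to 1.40 ± 0.19 (SD, n = 6 each), a difference of -0.45 ± 0.11 (SE), or 1.37-fold lower, with an adjusted p of 0.0398 (limma, Benjamini-Hochberg over all genes). The difference was -0.19 within slide 1 and -0.58 between slides 2 and 3. The call was lost when slide entered the fit as a fixed block (adjusted p 0.543) or a random one (adjusted p 0.213), and when 1 of 9 arrays was left out: control 2, 5, 6, 7 or 8 or fipronil 1, 2, 3 or 4 (adjusted p up to 0.0924). With spike-in scaling the difference was -0.20, beside a median over all genes of 0.17, and the adjusted p was 0.593 (limma). That scaling rests on a reference near the floor on slide 3.

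Ubtf, the upstream binding factor that keeps rDNA chromatin open, had control levels of 1.35 and 1.25 on slide 1 and 1.32, 1.59, 1.32 and 1.33 on slide 2. Its fipronil levels were 1.25 and 1.04 on slide 1 and 0.83, 0.79, 0.93 and 0.19 on slide 3. The groups met at the slide 1 arrays, where the upper fipronil value lay just above the lowest control. The difference of -0.52 ± 0.16 (SE) did not pass the threshold (limma, adjusted p = 0.0655). It was -0.15 within slide 1 and -0.70 between slides 2 and 3. A second Ubtf probe gave 0.39 over all arrays (adjusted p = 0.478), with -0.84 on slide 1 and 1.001 between slides 2 and 3. The 2 probes of the gene thus differed in sign between slides 2 and 3.

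Taf1b, a subunit of the promoter selectivity factor, ranged from -2.54 to -2.10 in the controls (median -2.30) and from -3.10 to -2.19 with fipronil (median -2.26). Its lowest value, -3.10, was that of fipronil 8 on slide 1, and the other 5 fipronil arrays lay within the control range. The difference was -0.13 ± 0.16 (SE; adjusted p = 0.638), and without fipronil 8 it was 0.0051. Ttf1, which binds the terminators of the rDNA, was a dim probe, well above background on all 6 control arrays and on 4 fipronil arrays. Its levels ran from -3.69 to -2.34 in the controls and from -4.19 to -2.91 with fipronil, with wide overlap. The difference was -0.40 ± 0.27 (SE; adjusted p = 0.367).

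Of the Pol I subunits, Polr1a and Polr1b form the catalytic core. Polr1a read -2.03 and -2.59 in the slide 1 controls and -2.21, -2.22, -2.18 and -2.37 on slide 2, against -3.10 and -2.07 with fipronil on slide 1 and -2.99, -2.89, -2.89 and -2.35 on slide 3. The 2 fipronil arrays of slide 1 lay at opposite ends of the fipronil range, and the groups overlapped. The groups differed by -0.45 ± 0.18 (SE; adjusted p = 0.138), and by -0.28 within slide 1. A second Polr1a probe was well above background on 0 of 12 arrays.

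Polr1b ran from -2.77 to -2.19 in the controls (median -2.39) and from -3.16 to -2.26 with fipronil (median -2.79). Of the 6 fipronil arrays 4 lay below the lowest control, but fipronil 1, at -2.26, lay in the upper part of the control range. Polr1b differed by -0.36 ± 0.15 (SE; adjusted p = 0.168), by -0.45 within slide 1 and by -0.31 between slides 2 and 3.

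Polr1e, a subunit of the dimer that helps Pol I initiate and elongate, read -1.29 and -1.55 in the slide 1 controls and -1.52, -1.75, -1.73 and -2.04 on slide 2. With fipronil it read -2.26 and -2.02 on slide 1 and -2.23, -2.04, -2.23 and -1.77 on slide 3. It was separate on slide 1, where the difference was -0.72, while slides 2 and 3 overlapped, with a difference of -0.31. Over all arrays it differed by -0.44 ± 0.14 (SE; adjusted p = 0.0723). A second, dimmer probe, well above background on 5 control arrays and 1 fipronil array, gave -0.36 (adjusted p = 0.547).

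Polr1c and Polr1d, which Pol I shares with Pol III, had the smallest differences of the subunits. Polr1c ran from 2.40 to 2.81 in the controls and from 2.04 to 2.84 with fipronil, a difference of -0.07 ± 0.14 (SE; adjusted p = 0.789). Polr1d, the average of 10 spots per array, ran from 1.35 to 1.97 and from 1.54 to 1.93, a difference of 0.05 ± 0.13 (SE; adjusted p = 0.827). Both were lower with fipronil on slide 1, by -0.26 and -0.22, and higher between slides 2 and 3, by 0.02 and 0.19. Their sign is thus not settled: that of Polr1c also changed with spike-in scaling, and that of Polr1d with median scaling.

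Within slide 1 all 9 Pol I genes were lower with fipronil, where 51.6% of all genes were lower, and their median difference there was -0.28, beside -0.02 over all genes. Between slides 2 and 3, 6 of them kept that sign, and 27.0% of all genes were lower in both places. With slide as a fixed block, a fit that takes its difference from the 2 arrays a treatment on slide 1, limma called 0.0886% of all genes and 0 of the 9 (1 at an unadjusted p under 0.05). With slide as a random block 0.155% of all genes and 0 of the 9 passed (3 at an unadjusted p under 0.05). Between slides 2 and 3 alone, 22.5% of all genes passed, and 3 of the 9 did: Polr1a, Rrn3 and Ubtf, all lower.

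**Figure D4:**
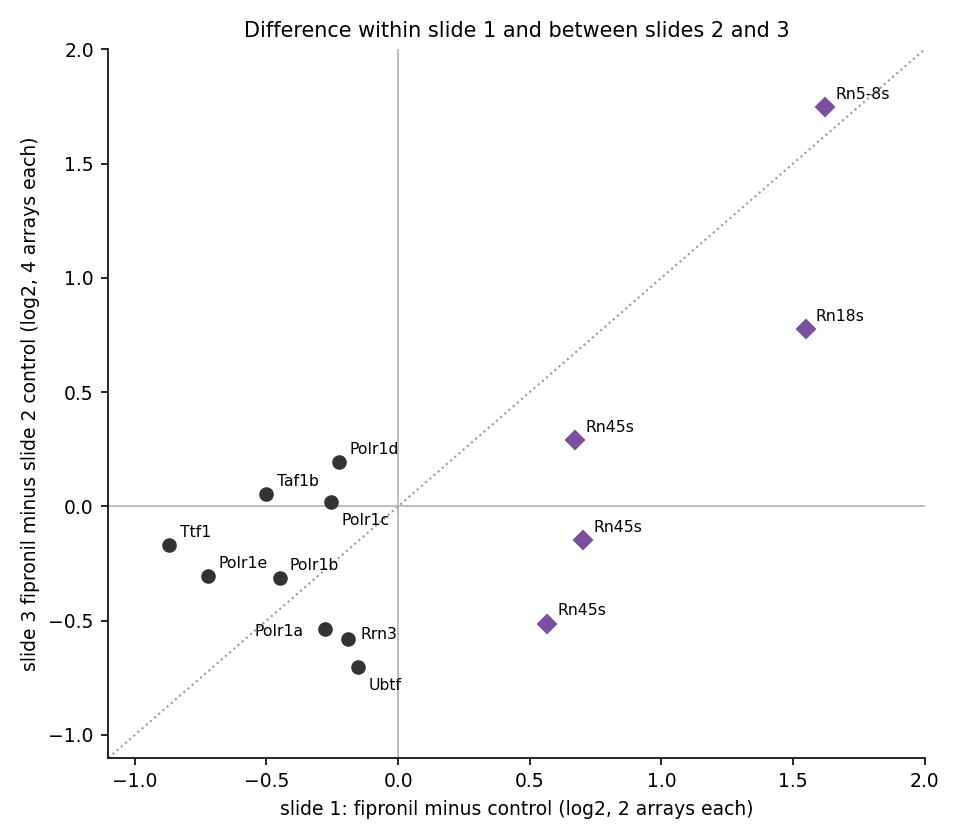
Difference in log2 level between fipronil and control within slide 1 (x axis, 2 arrays each) and between slide 3 fipronil and slide 2 control arrays (y axis, 4 arrays each) for the 9 Pol I genes (circles) and the 5 rRNA probes (diamonds); the dotted line marks equal differences. All Pol I genes lie left of 0 and all rRNA probes right of it, and Rn5-8s, at 1.62 and 1.75, is the probe of the rRNAs nearest to the line.

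The question put to these arrays was whether the Rn5-8s signal follows the Pol I genes or the quality of the array. Of 5 quality measures, 3 differed between the groups in exact permutation tests over the 12 arrays (2-sided, 924 regroupings, adjusted over the 5). The regroupings treat all 12 arrays as exchangeable, though slide 2 held controls alone and slide 3 fipronil alone. These p-values therefore do not separate treatment from slide. The 75th percentile averaged 382 ± 90.5 in the controls and 166 ± 62.9 with fipronil (SD, n = 6 each; adjusted p = 0.00361, exact permutation test). Spots well above background made up 48.2% ± 1.55 and 42.8% ± 1.99 (SD, n = 6 each; adjusted p = 0.00361, exact permutation test), and the log2 intensity of the spike-ins averaged 4.73 ± 0.39 and 3.24 ± 0.70 (SD, n = 6 each; adjusted p = 0.00361, exact permutation test). For each of the 3 the raw p, 0.00216, is the smallest this design can give. The coefficient of variation between the replicate spots of a probe was 5.86% ± 1.24 and 8.87% ± 2.87 (SD, n = 6 each; adjusted p = 0.0622, exact permutation test). The local background was 29.3 ± 4.50 and 26.3 ± 0.82 intensity units (SD, n = 6 each; adjusted p = 0.171, exact permutation test).

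Most of that gap lay between slides 2 and 3. Within slide 1 the percentile was 279 and 269 in the controls and 246 and 245 with fipronil, the spots above background averaged 46.6% and 45.2%, and the replicate spots varied by 7.15% and 5.56%. On slide 3 the replicate spots varied by 8.25% to 12.1%, and on slide 2 by 4.31% to 6.45%. Within slide 1, where Rn5-8s differed by 1.62, the percentiles differed by -0.16 and the spike-ins by -0.30 on the log2 scale. Whether array quality has a part in that difference was not tested. Whether brightness has a part in the difference between slides 2 and 3 cannot be told apart from treatment.

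Relations across arrays were computed within the 6 controls and within the 6 fipronil arrays, because the groups differ in level. There were 36 relations in all, of Rn5-8s with the 9 Pol I genes, the 5 quality measures and the 4 other rRNA probes in each group, and 0 passed after adjustment (exact permutation over pairings; lowest adjusted p = 0.325; 4 at an unadjusted p under 0.05). With 6 arrays, an exact 2-sided p of r cannot go below 0.00139, and a single relation at that limit would be adjusted to 0.05 over the 36. For rho the limit is 0.00278, so a single relation by rho could not pass. Each group spans 2 slides, which hold 2 and 4 of its arrays, too few for a relation within a slide. The permutations ignored slide, so a gap between the slides of a group can enter these p-values.

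With the Pol I genes, the r of Rn5-8s ran from -0.39 to 0.86 in the controls (6 of 9 above 0) and from -0.70 to 0.51 with fipronil (3 of 9 above 0). The highest was with Polr1e in the controls, r = 0.86 and rho = 0.71 (exact permutation p = 0.0361 and 0.136, adjusted 0.356 and 0.544), and r was 0.63 without the 2 arrays farthest from the median. With fipronil the r with Polr1e was 0.32. With Rrn3 it was -0.35 in the controls and 0.02 with fipronil, and with Ubtf -0.39 and -0.10. No Pol I gene had a raw p under 0.05 with fipronil (lowest 0.125, exact permutation).

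With the quality measures, the r of Rn5-8s took opposite signs in the groups for 4 of 5. With the share of spots above background it was -0.88 in the controls (rho = -0.77; exact permutation p = 0.0153 and 0.103, adjusted 0.325 and 0.544; -0.77 without the 2 farthest arrays) and 0.46 with fipronil. With the 75th percentile it was -0.78 in the controls, where it became -0.02 without the 2 farthest arrays, which were the slide 1 controls, and 0.50 with fipronil. The local background was the measure with the same sign in both groups, -0.78 in the controls and -0.73 with fipronil (exact permutation p = 0.0694 and 0.1, adjusted 0.356 and 0.36). Its rho was -0.84 and -0.83 (exact permutation p = 0.0444 and 0.0667, adjusted 0.544 for both). Without the 2 farthest arrays r was -0.34 and -0.80. Among the fipronil arrays this background ran only from 25 to 27 intensity units.

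With the other rRNA probes, r was above 0 in all 8 relations, from 0.64 to 0.81 in the controls and from 0.54 to 0.91 with fipronil. The highest was with Rn18s under fipronil, r = 0.91 and rho = 0.77 (exact permutation p = 0.0181 and 0.103, adjusted 0.325 and 0.544), and r was 0.51 without the 2 farthest arrays. In the controls the r with Rn18s was 0.64. These relations were added after the first values had been seen. Of the 4 rRNA probes, the one at base 5508 kept no positive sign with fipronil once the 2 farthest arrays were left out (r = -0.54).

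Before scaling, when all probes of an array share its brightness, the relations within the fipronil arrays were closer. There Rn5-8s had an r of 0.87 with the 75th percentile (rho = 0.77; exact permutation p = 0.0333 and 0.103, adjusted 0.133 and 0.336; 0.32 without the 2 farthest arrays), and in the controls 0.27. The 6 fipronil arrays stood in the same order for unscaled Rn5-8s, Rn18s, Polr1a and Polr1e (rho = 1 for each pair with Rn5-8s; adjusted p = 0.0333, exact permutation). By r none of the 36 unscaled relations had an adjusted p under 0.05 (10 at an unadjusted p under 0.05, exact permutation). The orders with Rn18s, Polr1a and Polr1e were not kept after scaling, where rho was 0.77, 0.43 and 0.43.

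As a further description, each array's deviation from the mean of its treatment and slide was set against that of Rn5-8s, over 12 arrays that share 4 such means. The r was 0.79 with Rn18s and 0.75, 0.50 and 0.40 with the Rn45s probes at bases 5508, 6254 and 8134. It was -0.56 with Rrn3, -0.58 with Ubtf, -0.55 with Ttf1 and 0.53 with Polr1e. With the quality measures it lay between -0.48, for the spread of replicate spots, and 0.11, for the spike-ins. Points of 1 slide share its hybridisation and scan, and no test was made of these values.

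By the same measures, the genes most like Rn5-8s among 9530 genes with a symbol were Ugt1a6 (r = 0.96 over the 12 arrays), Srgap2 and Ifnlr1 (0.90 each) and Irf2bp2 and Rit1 (0.89 each). Their differences between fipronil and control ran from 0.38 to 0.63, a direction that this choice over all 12 arrays largely fixed, since Rn5-8s itself was chosen by that difference. By deviations from the means of treatment and slide they were Vta1 (0.97), Snapin (0.96), Kcnj12 (0.96), Bpgm (0.95) and RT1-T24-4 (0.94), whose differences ran from -0.15 to 0.65. The sets share no gene.

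The other genes of the pathway were read from 6 lists, whose counts stand beside 5.01% of all genes called in either direction and 2.77% called lower. Of 8 other subunits in the Pol I holoenzyme, most of them shared with Pol II or III, 1 fell and 0 rose, with a median difference of -0.23. The one was Polr1g, the partner of Polr1e in their dimer, at 1.91 ± 0.13 and 1.01 ± 0.46 (SD, n = 6 each), a difference of -0.90 (adjusted p = 0.0210; -0.73 on slide 1). The call was lost without control 7.

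Of 18 tested genes of initiation, termination and rDNA chromatin, 3 fell and 0 rose, beside 2.77% of all genes called lower, with a median of -0.20. Wdr43, a nucleolar protein of the early precursor complex, fell by 0.68 on the log2 scale (adjusted p = 0.0135; -0.70 on slide 1). Myc, a transcription factor that raises rDNA transcription, fell from 0.81 ± 0.30 to -0.05 ± 0.22 (SD, n = 6 each), by 0.86 (adjusted p = 0.0153; -0.94 on slide 1). Tbp, the TATA-binding protein, which works in promoter factors of all 3 polymerases, fell by 0.41 (adjusted p = 0.0279; -0.36 on slide 1). The Tbp call was lost without control 2, 6, 7 or 8 or fipronil 1 or 3. On slide 1, 16 of these 18 genes were lower, with a median of -0.57, beside 51.6% of all genes and a median of -0.02 over all of them.

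Of 33 tested genes that cut the precursor and trim the 5.8S RNA, 1 fell and 0 rose, a share near the 2.77% of all genes called lower, with a median of -0.21. It was Exosc2, a cap subunit of the exosome, the complex that trims the 3′ end of the 5.8S RNA. Exosc2 fell by 0.64 (adjusted p = 0.0423), with a slide 1 difference of -0.05, and the call held in leave-one-out fits only without fipronil 7 or fipronil 8. On slide 1, 28 of the 33 genes were lower, with a median of -0.44, beside the same 51.6% and -0.02 over all genes.

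None of 20 tested Pol III genes and none of 7 Pol II subunits passed (limma; 6 and 1 at an unadjusted p under 0.05), with medians of -0.17 and -0.16. The Pol III genes with the highest signal were Crcp, a Pol III subunit (0.04, adjusted p = 0.905), and Maf1, the Pol III repressor (-0.42, adjusted p = 0.279; 0.52 on slide 1). For Pol II they were Polr2g (-0.16, adjusted p = 0.391) and its largest subunit Polr2a (-0.20, adjusted p = 0.248). The calls of Polr1g, Wdr43, Myc, Tbp and Exosc2 were all lost with slide as a fixed or random block and with spike-in scaling.

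Of 4 tested structured RNAs, 0 passed (limma, with 2 at an unadjusted p under 0.05, beside 25.0% of all genes). All 4 were higher in sign, with a median of 0.44, where 59.7% of all genes were lower. Rn45s was counted by its brightest probe, and its other probes gave 0.14 and -0.15. They were Rn18s, Rn45s, Rn7sl1, the RNA of the signal recognition particle (0.09, adjusted p = 0.670), and a probe that the array names Rmrp and RefSeq names Rpph1 (0.46, adjusted p = 0.276). On slide 1 Rn7sl1 differed by 0.27 and the last probe by 0.34.

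**Figure D5:**
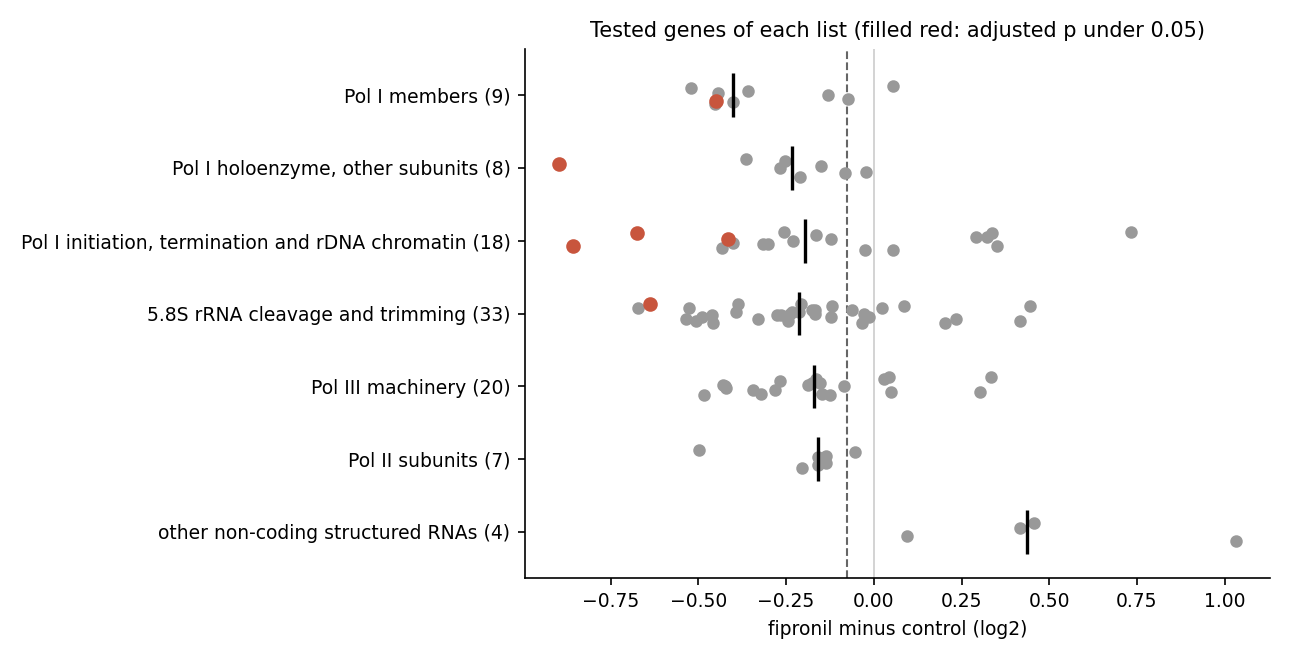
Difference between fipronil and control (log2) for each tested gene of the Pol I members and the 6 lists, with the number tested in brackets; red points passed an adjusted p of 0.05, black bars are list medians and the dashed line is the median of all genes, -0.08. Every red point lies below 0, and the 4 structured RNAs, with Rn45s shown by its brightest probe, all lie above it.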

How the data were processed

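N27 cells with and without fipronil were profiled on 12 arrays, 6 a group, a number that limits how precise a mean can be. The authors read the spots with Feature Extraction from Agilent (10.7 per the submitters' processing notes, 10.1.1.1 per the file headers); the processed signal is a background-subtracted intensity with no scaling between arrays, per the file headers. Flags for spots well above background, saturated or outlying are other values set by that software, per the file headers. The authors' deposited table holds quantile-normalized log2 values and served as an alternative.

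Outlier spots were dropped, log2 signals were scaled to each array's 75th percentile, and probes well above background on at least 6 arrays were kept (16291), with the brightest probe per gene. No spot of the members was saturated. Names follow a RefSeq table of GRCr8; the files' build differs, so no coordinates are printed. Groups were compared with limma 3.58.1 in R 4.3.3 (2-sided, Benjamini-Hochberg, threshold 0.05). The fit was tried on simulated data with independent arrays and no slide effect, which cannot show its error rate under the slide layout here. Permutations used Python 3 code with numpy and scipy.

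Members, lists and tests were chosen with earlier results of these data known. Named genes were the 10 members, up to 4 genes of each list past the threshold by adjusted p (else the 2 brightest), and 5 genes by each measure of likeness to Rn5-8s. Marker lists of 6 cell types (dopaminergic, neuronal, astrocyte, oligodendrocyte, microglial and fibroblast) were read too; of the neuronal, astrocyte, oligodendrocyte and microglial markers tested, Tubb3 and Cx3cr1, neither passed (adjusted p = 0.678 and 0.349). Same-numbered arrays (2, 3, 7 and 8) deviated together with r of 0.43, 0.08, -0.11 and -0.31 over genes, so the numbers were not used as pairs. Alternatives covered scaling, background, filters, slides, array weights and leaving out each array.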

Additional observations from a re-analysis of the deposited data

Results flagged for a closer look

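In 38 sets of 6 arrays, made of the members, the other rRNA probes and the quality measures in each group, 2 had 1 array far from the other 5; chance alone gives about 1 in 20. The Ubtf level of control 6, on slide 2, was 1.59, with the nearest other control at 1.35 and the lowest at 1.25, so that the gap took up a share of 0.703 of the whole range. The Taf1b level of fipronil 8, on slide 1, was -3.10, with the nearest other fipronil array at -2.47 and the highest at -2.19, a share of 0.693. Fipronil 8 also had the lowest array weight, 0.362, in the fit that weights arrays by their residuals.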

How the results depend on the processing

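Rn5-8s stayed higher with fipronil under all 29 alternatives, by 0.45 without scaling, which was chosen after seeing the data, and by 1.45 to 1.95 otherwise. The unscaled difference was 1.46 on slide 1 and -0.05 between slides 2 and 3. Leave-one-out gave 1.59 to 1.86. Rn5-8s was chosen by its difference on these same arrays, so these values describe that difference and do not test it. The counts of changed genes, Pol I genes and list genes were 678, 1 and 5. They became 212, 0 and 0 with spike-in scaling; 6774, 6 and 34 with normexp and the 75th percentile; 16313, 3 and 14 with no filter on dim probes; 2219, 3 and 12 with array weights; 3044, 3 and 19 between slides 2 and 3 only; and 12864, 9 and 88 without scaling. With slide as a fixed block they were 12, 0 and 0, with a random block 21, 0 and 0, on slide 1 only 0, 0 and 0 (2 arrays a treatment; limma, 2140 genes at an unadjusted p under 0.05), and with the replicate number as a block 0, 0 and 0 (2164 genes at an unadjusted p under 0.05). With no filter on dim probes 36181 genes were tested. Of those called there, 15088 were higher and 1225 lower, while the 3 Pol I genes called were lower. Median scaling left 0 Pol I genes. The filter on all 12 arrays called 965 of 10609 genes, with 2 Pol I genes and 9 list genes. Leaving out 1 array gave 228 to 2022 genes, 0 to 3 Pol I genes and 2 to 15 list genes; the highest of each came without fipronil 8 (Polr1a, Rrn3 and Ubtf), the fewest list genes without control 7. Rrn3 passed in 14 of 29 alternatives and kept its sign in all. Without scaling, Ugt1a6, Srgap2, Ifnlr1 and Irf2bp2 turned to -0.85, -0.62, -0.73 and -0.63. Of the 5 quality measures, 3 differed over all arrays, 0 on slide 1 only, where 2 against 2 arrays cannot pass, and 5 between slides 2 and 3; leave-one-out gave 3 to 4. By r, 0 relations of Rn5-8s passed without scaling or with spike-in scaling (10 and 5 at an unadjusted p under 0.05, exact permutation); by rho, 3 passed without scaling and 0 with spike-ins. Under the normexp background with the 75th percentile, Polr1a, Polr1b, Polr1e, Taf1b and Ttf1 turned positive. In that setting 6774 of 13542 genes were called, 5113 higher and 1661 lower, and the median difference over all genes was 0.17. Of the 6 Pol I genes called there, 2 were lower, Rrn3 and Ubtf. The others, Polr1a, Polr1b, Taf1b and Ttf1, were called higher. The causes were not tested. Dim probes limit Ttf1 and the second probes of Polr1a and Polr1e. A reference near the floor on slide 3 limits all results with spike-in scaling.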
